A study of Mus musculus with 6 samples.

Results

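The mouse mitochondrial genome is described here as all genes that the deposited count table places on chromosome MT. They number 37 of 54532 genes in the table: 2 ribosomal RNA (rRNA) genes, 13 protein-coding (mRNA) genes and 22 transfer RNA (tRNA) genes. The position on MT chose them, and no measured value did, though earlier results of these data were known. RNA sequencing was made from wild-type L929 cells, a mouse fibroblast line, with 3 control libraries and 3 libraries from cells labelled TNF-α. Treated cells received TNF-α, an inflammatory cytokine, at 10 ng/ml together with actinomycin D, a DNA-binding inhibitor of transcription, at 1 µg/ml for 12 hours, and no group received either agent alone. The treatment text stands on the control samples as well, so the group was taken from the titles and treatment labels. Separate cultures are not mentioned, so the p-values rest on a spread between libraries that may be technical. The labels name total RNA, and how it was selected is not stated. Libraries held 16056207 to 18036322 counts on 15705 to 20116 genes. The fibroblast genes Col1a1, Col1a2, Col3a1, Vim and Fn1 were well counted in every library, Thy1 had 6 counts in all, Lum and Dcn had 0, and Pdgfrb went from 5591 counts over the controls to 1416 over the treated libraries. Of 4 epithelial genes, Epcam and Krt5 had 0 counts, Cdh1 had 2 and 9 over controls and treated libraries, and Krt14 had 254 and 377. Among leukocyte genes, Cd68 had 137 and 917 counts, and Ptprc and Cd3e had at most 1 in either group. The part of these differences in the results was not tested. These are bulk samples, so fewer cells and less RNA per cell cannot be told apart.

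The mitochondrial genome is a small circle that is transcribed from both strands into long precursor RNAs. Nucleases cut the tRNAs out of these precursors and thereby free the rRNAs and mRNAs that lie between them, after which the rRNAs enter the mitochondrial ribosome and most mRNAs receive short poly(A) tails. A dedicated RNA polymerase, POLRMT, reads the circle, and its products supply core subunits of respiratory complexes I, III and IV and of the ATP synthase. The plus strand of the table carries both rRNA genes, 12 mRNA genes and 14 tRNA genes, and the minus strand carries mt-Nd6 and 8 tRNA genes.

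The 3 kinds of mitochondrial RNA differed in how they moved. Both rRNAs rose steeply, the 4 tested of 5 tRNA genes clustered between mt-Nd2 and mt-Co1 were higher too, 3 neighbouring tRNA genes between mt-Nd4 and mt-Nd5 fell, and most mRNAs moved little. Of the 37 genes, 31 had a count and 23 had enough counts to be tested with the quasi-likelihood test of edgeR, adjusted by Benjamini-Hochberg over all 13290 genes tested, with a threshold of 0.05. Of these 23, 12 were higher after treatment, 3 were lower and 8 did not pass. Among all genes tested, 74.8% passed, 34.6% higher and 40.2% lower. The share of the 23 called higher stands above that background and the share called lower below it, though a gene counted in 1 group alone could enter the test through that group. The median log2 change was 0.66 over the 23 genes and −0.18 over all genes. In 11 of the 23 every treated library lay above every control library, and in 4 every treated library lay below. These shares are 35.9% and 42% over all genes tested. These levels are CPM values, that is counts relative to library size, after scaling by the trimmed mean of M values (TMM), and the calls depended on that scaling. By library size alone 7 were higher and 7 lower, and when libraries were scaled to equal ribosomal protein genes (the ribosomal protein scale) 4 were higher and 16 lower. The median of all genes moved from −0.18 to −1.21 and −2.56 in those fits, so a value is best read against it.

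**Figure D1:**
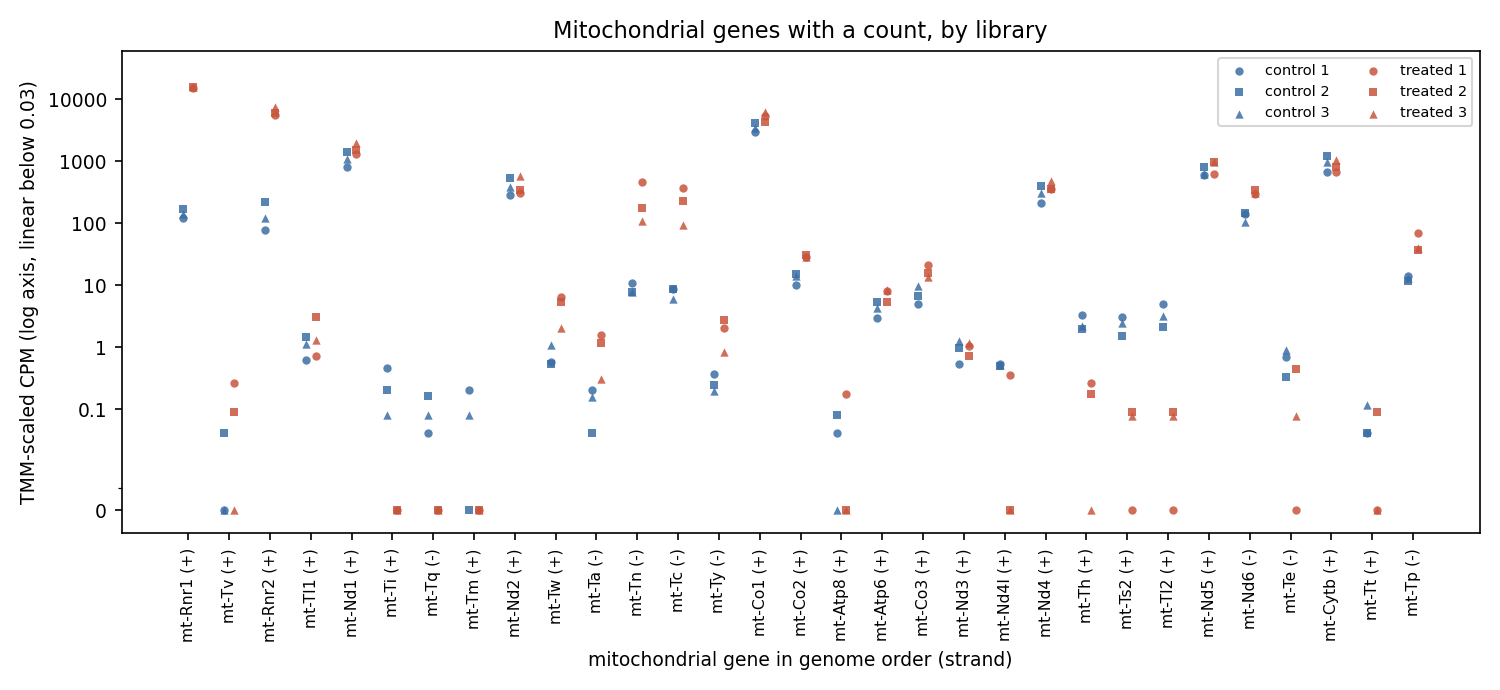
TMM-scaled CPM (log axis, linear below 0.03) of the 31 mitochondrial genes with a count, in genome order with their strand, 1 point per library. Treated libraries stand far above the controls at mt-Rnr1, mt-Rnr2, mt-Tn and mt-Tc and below them at mt-Th, mt-Ts2 and mt-Tl2, while the points of most mRNA genes lie together.

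The small-subunit rRNA, mt-Rnr1 (MT:70-1024, GRCm38, plus strand), builds the decoding subunit of the mitochondrial ribosome. It stood at 119, 170 and 140 CPM in the control libraries and at 15063, 15827 and 15859 CPM in the treated ones. The treated libraries were close together and far above every control. Its mean went from 143 ± 25.3 to 15583 ± 451 CPM (SD, n = 3 each), a log2 change of 6.77 ± 0.26 (SE, edgeR adjusted p = 1.49e-07).

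The large-subunit rRNA, mt-Rnr2 (MT:1094-2675, plus strand), forms the peptide-bond centre of that ribosome and lies next to mt-Rnr1, with mt-Tv between them. It stood at 77.7, 222 and 123 CPM in controls and at 5503, 6053 and 7368 CPM in treated libraries. The controls spread more widely here than for mt-Rnr1, and no treated library came near them. The log2 change was 5.48 ± 0.40 (SE, edgeR adjusted p = 1.21e-06).

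Both rRNA genes were higher in all 18 other fits, by 4.36 to 6.89 for mt-Rnr1 and by 3.06 to 5.94 for mt-Rnr2 on the log2 scale. The smallest values came on the ribosomal protein scale. The 2 rRNAs did not rise by the same factor. The ratio of mt-Rnr1 to mt-Rnr2 counts was 1.53, 0.763 and 1.14 in controls and 2.74, 2.61 and 2.15 in treated libraries, a difference of 1.18 in mean log2 ratio. Every treated library had the higher ratio. The exact two-sided permutation p was 0.1, the smallest that 3 against 3 libraries allow, and 0.114 after Benjamini-Hochberg adjustment over 8 tests of shares and ratios. No such test could therefore pass 0.05.

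mt-Co1, which encodes the catalytic subunit of cytochrome c oxidase (complex IV), was the most abundant mRNA of the genome per length in both groups, at a mean of 2284 CPM per kb in controls and 3401 in treated libraries. Its levels were 2972, 4152 and 3460 CPM in controls and 5384, 4298 and 6083 CPM after treatment. The groups did not overlap, but treated replicate 2 stood close to control replicate 2. This made a log2 change of 0.57 ± 0.21 (SE, edgeR adjusted p = 0.0282). It turned to −0.46 by library size alone, to −1.81 on the ribosomal protein scale and to −0.20 with a gene length offset. The call was also lost with mitochondrial mRNA held equal (0.12), with no filter (0.42), without control replicate 1 (0.44) or 3 (0.53) and without treated replicate 1 (0.46) or 3 (0.40).

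The other oxidase subunits, mt-Co2 and mt-Co3, carry the copper centre that receives electrons and a core membrane subunit. mt-Co2 stood at 10.0, 14.8 and 14.1 CPM in controls and 28.0, 31.0 and 28.6 CPM in treated libraries. Each treated library lay above each control, with a log2 change of 1.17 ± 0.20 (SE, edgeR adjusted p = 0.000328). mt-Co3 stood at 4.93, 6.79 and 9.80 CPM in controls and at 21.4, 15.9 and 13.7 CPM after treatment, again without overlap. Its log2 change was 1.24 ± 0.29 (SE, edgeR adjusted p = 0.00237). By library size alone neither was called, at 0.11 for mt-Co2 and 0.17 for mt-Co3, and both fell on the ribosomal protein scale, by 1.25 and 1.21 on the log2 scale.

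The ATP synthase gene mt-Atp6, for the subunit of its proton channel, stood at 2.98, 5.44 and 4.35 CPM in controls and 7.95, 5.30 and 8.40 CPM in treated libraries. Treated replicate 2 lay below control replicate 2, so the groups overlapped. edgeR gave a log2 change of 0.76 ± 0.31 (SE, edgeR adjusted p = 0.0407). It turned negative by library size alone (−0.28), on the ribosomal protein scale (−1.64) and with the length offset (−0.67). With mitochondrial mRNA held equal it was 0.32, with no filter 0.60, without control replicate 1 0.53, without control replicate 3 0.74, and without treated replicate 1, 2 or 3 it was 0.59, 0.85 and 0.58, and none of these was called. mt-Atp8, for its small partner subunit, had 1, 2 and 0 counts in controls and 2, 0 and 0 after treatment, too few to test.

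Complex III takes 1 mitochondrial product, cytochrome b, from mt-Cytb. Its levels were 670, 1191 and 948 CPM in controls and 668, 809 and 1043 CPM in treated libraries. The groups overlapped over most of their range, with a log2 change of −0.16 ± 0.24 (SE, edgeR adjusted p = 0.565). It was called lower by library size alone (−1.19), on the ribosomal protein scale (−2.54) and with the length offset (−1.18).

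Complex I takes 7 subunits from this genome. mt-Nd1, for a membrane subunit near the quinone site, stood at 813, 1380 and 1074 CPM in controls and 1297, 1505 and 1967 CPM in treated libraries. Treated replicate 1 lay below control replicate 2. The log2 change of 0.55 ± 0.23 (SE, edgeR adjusted p = 0.0513) just missed the threshold. With all 6 libraries it was called higher with median-ratio factors (0.65), a stricter filter (0.66), DESeq2 (0.65) and limma-voom (0.56), as it was without control replicate 2 (0.72). On the ribosomal protein scale it was called lower (−1.83). mt-Nd2, mt-Nd4 and mt-Nd5, for the proton-pumping subunits, changed by 0.01 ± 0.28, 0.38 ± 0.23 and 0.33 ± 0.21 on the log2 scale, and none was called. In each of them the groups overlapped. On the ribosomal protein scale all 3 were called lower, by library size alone mt-Nd2 (−1.01) and mt-Nd5 (−0.71) were, and with the length offset mt-Nd2 (−1.08). Without control replicate 2, mt-Nd4 was called higher at 0.59. mt-Nd3 changed by 0.07 ± 0.49 at under 2 CPM in every library and was not called either. It too was called lower on the ribosomal protein scale (−2.32) and with the length offset (−1.67). mt-Nd4l had 13, 12 and 13 counts in controls and 4, 0 and 0 in treated libraries. That is a log2 change of −2.12 ± 0.96 (SE, edgeR adjusted p = 0.0657). It was called lower by library size alone (−3.14), on the ribosomal protein scale (−4.48), with the length offset (−3.82), with mitochondrial mRNA held equal (−2.57) and with limma-voom (−2.61) or limma on log2(FPKM + 1) (−1.03) or log2(FPKM + 0.1) (−2.89). It was also called without treated replicate 1, where the treated libraries left are both at 0 counts and the fitted value is no bound.

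mt-Nd6, the complex I gene of the minus strand (MT:13552-14070), was the only complex I gene that passed the threshold. It stood at 140, 145 and 102 CPM in controls and 298, 343 and 308 CPM in treated libraries. The groups were far apart, at a log2 change of 1.29 ± 0.17 (SE, edgeR adjusted p = 4.17e-05). This call was lost by library size alone (0.25), and the direction turned on the ribosomal protein scale (−1.11) and with the length offset (−0.30). Within each library, which needs no scaling, mt-Nd6 made up 2.45%, 1.68% and 1.48% of all mitochondrial mRNA counts, its own included, in controls. After treatment it made up 3.32%, 3.95% and 2.69%. The mean log2 ratio to the 12 plus-strand mRNAs was higher by 0.87, that is 1.82-fold, in treated libraries (exact permutation p = 0.1, adjusted 0.114). The sources used here do not give whether counting used strand, so reads of mt-Nd6 and of the plus-strand precursor that runs opposite to it cannot be told apart.

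Across the 12 mRNA genes tested, 5 were thus higher, 0 were lower and 7 did not pass, with a median log2 change of 0.46. DESeq2 called 0 lower as well, and limma-voom called 1 lower, mt-Nd4l. By library size alone 0 were called higher and 4 lower, with a median of −0.57. On the ribosomal protein scale 0 were called higher and all 12 lower, with a median of −1.92. The length offset gave 0 higher and 4 lower, with a median of −0.56.

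Levels per length fell into 2 ranges among the mRNA genes, a split made after the values were seen. mt-Nd1, mt-Nd2, mt-Co1, mt-Nd4, mt-Nd5, mt-Nd6 and mt-Cytb ran from 220 to 2284 CPM per kb in controls. mt-Co2, mt-Atp8, mt-Atp6, mt-Co3, mt-Nd3 and mt-Nd4l ran from 0.201 to 19.0, and mt-Co1 stood 120-fold above the highest of them. Annotated transcripts of unprocessed pseudogenes on the minus strand of nuclear chromosome 1 (GENCODE M21, GRCm38) repeat 5 of these 6 genes nearly base for base. Gm28661 was identical to mt-Co2 over 681 bases, Gm10925 to mt-Atp6 over 678, Gm28437 to mt-Co3 over 783 and Gm10222 to mt-Nd4l over 294. Gm28438 differed from mt-Nd3 at 1 of 345 bases. mt-Atp8, between mt-Co2 and mt-Atp6, matched no such transcript, but only annotated transcripts were searched. The copies of its neighbours, Gm28661 (chr1:24614885-24615565) and Gm10925 (chr1:24613974-24614651), lie in the same order on their strand. The bases between them were not searched, so a copy of mt-Atp8 there would have been missed. In the other set, Gm28439 matched the first 876 of 1378 bases of mt-Nd4 without a difference, and Gm29216 matched the last 483 of 1545 bases of mt-Co1 with 1 difference.

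The windows around those single differences show how little sequence separates the copies. Capitals mark the differing base, and positions count from 1 at the first base of the mitochondrial gene.
mt-Nd3 (MT:9459-9481, plus strand, T3C): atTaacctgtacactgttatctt
Gm28438 (chr1:24613097-24613119, minus strand): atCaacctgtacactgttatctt
mt-Co1 (MT:6390-6413, plus strand, A1066T): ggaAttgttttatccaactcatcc
Gm29216 (chr1:24616165-24616188, minus strand): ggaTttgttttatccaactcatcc

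The sources used here do not give how reads that match a gene and its copy were counted, so the values of these mRNA genes are uncertain. The copies carried counts of their own. The 5 nuclear copies together held 1432, 1639 and 1553 counts in controls and 806, 688 and 789 in treated libraries, against 460, 700 and 760 and then 667, 599 and 678 on the 6 mitochondrial genes. Gm28438 held 609, 679 and 661 counts in controls and 292, 137 and 136 after treatment, far more than mt-Nd3 itself. Summed with their copies, mt-Co2 went from 581 ± 121 to 609 ± 97.7 counts, mt-Atp6 from 240.0 ± 71.8 to 196 ± 56.0, mt-Co3 from 609 ± 37.8 to 399 ± 62.8, mt-Nd3 from 673 ± 44.2 to 200.0 ± 90.1 and mt-Nd4l from 77.7 ± 4.73 to 4.33 ± 2.52 (SD, n = 3 each). These sums are unscaled counts from libraries of near-equal total, a scale unlike that of the TMM-scaled changes above. As raw counts every treated sum lay below every control sum for mt-Co3, mt-Nd3 and mt-Nd4l, and for mt-Co2 and mt-Atp6 the sums overlapped. TMM takes effective library sizes of 24153196 to 25306679 in controls and 11312120 to 13099443 in treated libraries. Over those sizes every treated sum lay above every control for mt-Co2 and mt-Co3. For mt-Atp6 and mt-Nd3 the sums then overlapped, and only mt-Nd4l stayed below. Apart from mt-Atp8, which was not tested, 4 plus-strand mRNA genes had no annotated copy of at least 99% identity: mt-Nd1, mt-Nd2, mt-Nd5 and mt-Cytb. These 4 had 0 calls in either direction and a median log2 change of 0.17. Other settings gave calls in them. DESeq2 called mt-Nd1 higher, at 0.65, while by library size alone mt-Nd2 (−1.01), mt-Nd5 (−0.71) and mt-Cytb (−1.19) were called lower, and on the ribosomal protein scale all 4 were, from −2.54 to −1.83.

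**Figure D2:**
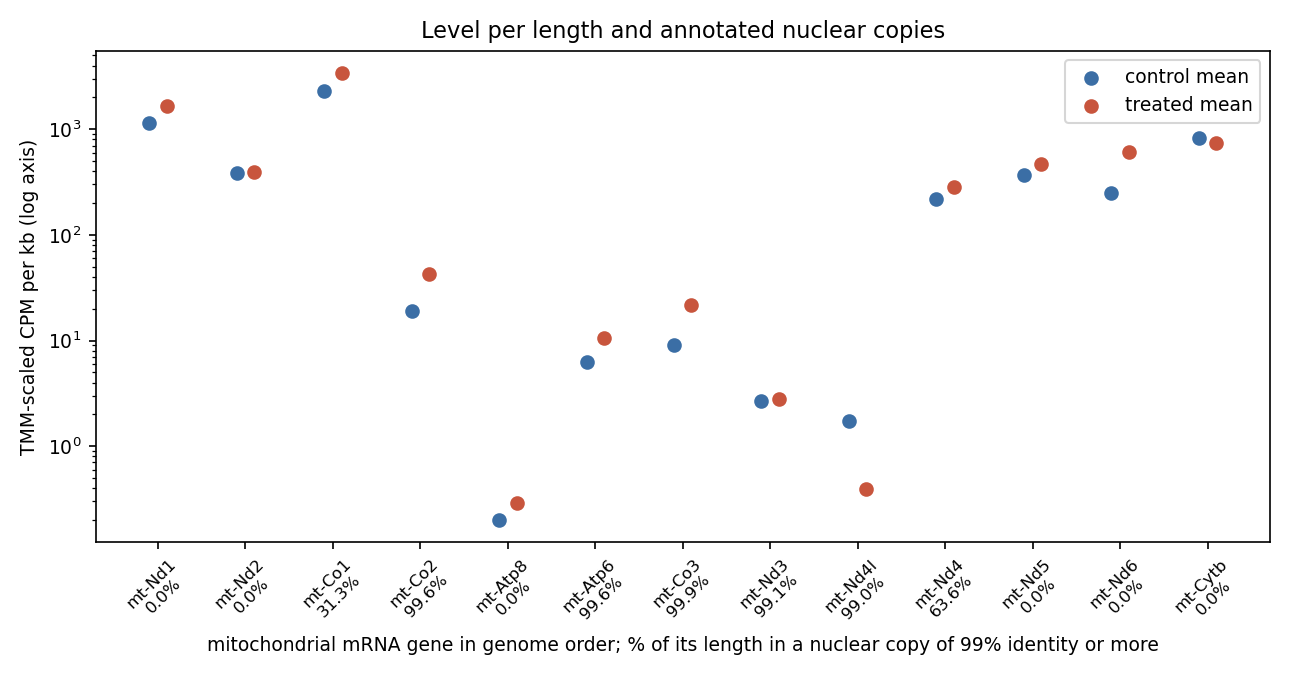
Mean TMM-scaled CPM per kb (log axis) of the 13 mitochondrial mRNA genes in control and treated libraries, with the percent of each gene's length in an annotated nuclear copy of at least 99% identity printed under its name. The 5 genes almost wholly inside such a copy, together with mt-Atp8, stand well below the others in both groups. Only annotated transcripts were searched, so a copy of mt-Atp8 between them would not show.

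The tRNA genes gave the widest range of changes. Each tRNA carries 1 amino acid to the mitochondrial ribosome and reads its codons with a base triplet, the anticodon. Of the 22 tRNA genes, 6 had 0 counts in every library (mt-Tf, mt-Ts1, mt-Td, mt-Tk, mt-Tg and mt-Tr), and 5 of those lie between mt-Co1 and mt-Nd4. In that stretch all mRNA genes but mt-Atp8 have annotated copies on chromosome 1. The bases between those copies were not searched for tRNA genes, and the part of such copies in the 0 counts was not tested. Of the 9 tested, 5 were higher, 3 were lower, and mt-Tl1 did not pass at a log2 change of 0.66 ± 0.57. On the ribosomal protein scale (−1.79) and with the length offset (−1.42) mt-Tl1 was called lower.

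The rises lie in the cluster of 5 tRNA genes between mt-Nd2 and mt-Co1, and at mt-Tp. In the cluster mt-Tw is on the plus strand and mt-Ta, mt-Tn, mt-Tc and mt-Ty follow on the minus strand, where the origin of light-strand replication lies between mt-Tn and mt-Tc. Their sequences are given 5′ to 3′ as DNA in the sense of each tRNA, from GENCODE M21 (GRCm38), with the anticodon in capitals, so that the neighbours that rose and those that fell can be compared.
mt-Tw (tryptophan, MT:4950-5016, plus strand): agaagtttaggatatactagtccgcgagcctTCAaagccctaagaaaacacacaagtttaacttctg
mt-Ta (alanine, MT:5018-5086, minus strand): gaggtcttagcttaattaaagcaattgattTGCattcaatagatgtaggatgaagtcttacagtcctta
mt-Tn (asparagine, MT:5089-5159, minus strand): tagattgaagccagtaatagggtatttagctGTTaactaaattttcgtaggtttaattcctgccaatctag
mt-Tc (cysteine, MT:5192-5257, minus strand): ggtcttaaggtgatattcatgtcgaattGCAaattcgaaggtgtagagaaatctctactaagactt
mt-Ty (tyrosine, MT:5260-5326, minus strand): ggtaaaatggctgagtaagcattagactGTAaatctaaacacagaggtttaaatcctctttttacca
mt-Tp (proline, MT:15356-15422, minus strand): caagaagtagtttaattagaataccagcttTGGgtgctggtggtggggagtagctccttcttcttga

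mt-Tn stood at 10.9, 7.60 and 7.71 CPM in controls and at 465, 172 and 109 CPM in treated libraries. The groups were far apart, and treated replicate 1 stood well above the other treated libraries. The log2 change was 4.83 ± 0.51 (SE, edgeR adjusted p = 1.29e-05), and 3.94 without treated replicate 1. mt-Tc, on the other side of the replication origin, stood at 8.65, 8.54 and 5.93 CPM and then at 373, 230 and 93.7 CPM. The same treated library was the highest. Its log2 change was 4.91 ± 0.46 (SE, edgeR adjusted p = 5.94e-06), and 4.32 without treated replicate 1.

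Their neighbours rose from far lower levels. mt-Tw stood at 0.58, 0.53 and 1.07 CPM in controls and at 6.45, 5.30 and 2.06 CPM after treatment, a log2 change of 2.64 ± 0.49 (SE, edgeR adjusted p = 0.000524). mt-Ty stood at 0.37, 0.25 and 0.20 CPM and then at 2.03, 2.74 and 0.84 CPM, a log2 change of 2.75 ± 0.58 (SE, edgeR adjusted p = 0.00126). Neither gene had overlapping groups. Both calls were lost on the ribosomal protein scale, at 0.16 for mt-Tw and 0.31 for mt-Ty, and with a gene length offset, at 0.57 and 0.70. mt-Ta had 5, 1 and 4 counts in controls and 18, 13 and 4 in treated libraries, too few to test. Its treated to control ratio was 7.24 (exact 95% interval 3.51 to 16.4, counting error only).

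As raw counts the 5 genes of the cluster held 500, 415 and 381 in the controls and 9612, 4647 and 2695 in the treated libraries. This grouping was made after the values were seen and was not tested. mt-Tn and mt-Tc alone took 40.0% ± 4.40 of all mitochondrial tRNA counts in controls and 87.4% ± 4.76 after treatment (SD, n = 3 each). Per length their means were 3503 and 3519 CPM per kb in treated libraries, beside a mean of 3987 for mt-Rnr2. Treated replicate 1 was the highest for both tRNAs and the lowest for mt-Rnr2, so single libraries differ from these means.

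mt-Tp lies beside the control region, where it comes first in the reading direction of the minus strand. It stood at 14.2, 11.8 and 13.2 CPM in controls, the most abundant tRNA gene there, and at 68.0, 37.4 and 39.3 CPM after treatment. The groups did not overlap, and the log2 change was 1.88 ± 0.25 (SE, edgeR adjusted p = 4.01e-05). It turned to −0.54 on the ribosomal protein scale and to −0.16 with the length offset.

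The 3 tRNA genes that fell are adjacent on the plus strand, between mt-Nd4 and mt-Nd5, and neither of those mRNA genes was called. The last base of mt-Ts2 is the first of mt-Tl2. mt-Ts2 is the shortest, 59 bases, and lacks the D arm that most tRNAs have.
mt-Th (histidine, MT:11546-11612, plus strand): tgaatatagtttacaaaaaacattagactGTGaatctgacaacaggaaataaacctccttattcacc
mt-Ts2 (serine, MT:11613-11671, plus strand): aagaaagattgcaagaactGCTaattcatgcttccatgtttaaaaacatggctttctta
mt-Tl2 (leucine, MT:11671-11741, plus strand): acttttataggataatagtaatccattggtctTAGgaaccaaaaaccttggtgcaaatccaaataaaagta

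mt-Th had 79, 48 and 56 counts in controls and 3, 2 and 0 in treated libraries. Its log2 change was −4.07 ± 0.68 (SE, edgeR adjusted p = 0.000234), which became −4.88 without treated replicate 1 and −3.48 without treated replicate 3. mt-Ts2 had 74, 37 and 61 counts and then 0, 1 and 1. Its treated to control ratio, over TMM-scaled library sizes, was 0.0241 (exact 95% interval 0.00289 to 0.0882, counting error only; edgeR adjusted p = 6.27e-05). mt-Tl2 had 121, 51 and 81 counts and then 0, 1 and 1. That ratio was 0.0164 (interval 0.00197 to 0.0597; edgeR adjusted p = 2.6e-05). In each of the 3 genes every control library stood far above every treated one, no treated library had more than 3 counts, and all other fits in which they were tested gave the same direction.

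The tRNA genes outside these places had few counts. Setting aside the cluster and mt-Tp, the other 16 tRNA genes held 324, 191 and 258 counts in controls and 14, 46 and 20 in treated libraries, a grouping also made after the values were seen. Among the untested genes mt-Ti had 11, 5 and 2 counts and then 0 in every treated library, at least 2.90-fold lower when the treated group is set to a floor of 3 counts in all. mt-Tq and mt-Tm went from 7 counts each over the controls to 0. mt-Te had 17, 8 and 23 counts and then 0, 5 and 1, a ratio of 0.259 (exact 95% interval 0.0904 to 0.605, counting error only). mt-Tv and mt-Tt had at most 3 counts in any library.

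Strand divided the tRNA genes in part. The 4 tested genes of the minus strand were all higher, while of 5 tested on the plus strand 1 was higher and 3 lower. The log2 ratio of minus-strand to plus-strand tRNA counts was 1.40, 1.87 and 1.46 in controls and 6.89, 5.63 and 6.11 after treatment, a difference of 4.64 (exact permutation p = 0.1, adjusted 0.114). mt-Tw went against that division. So did mt-Te and mt-Tq on the minus strand, with 48 and 7 counts over the controls and 6 and 0 after treatment. The ratio leans on mt-Tn and mt-Tc, which held 87.4% of mitochondrial tRNA counts after treatment. Here too the strand of the reads is not known.

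**Figure D3:**
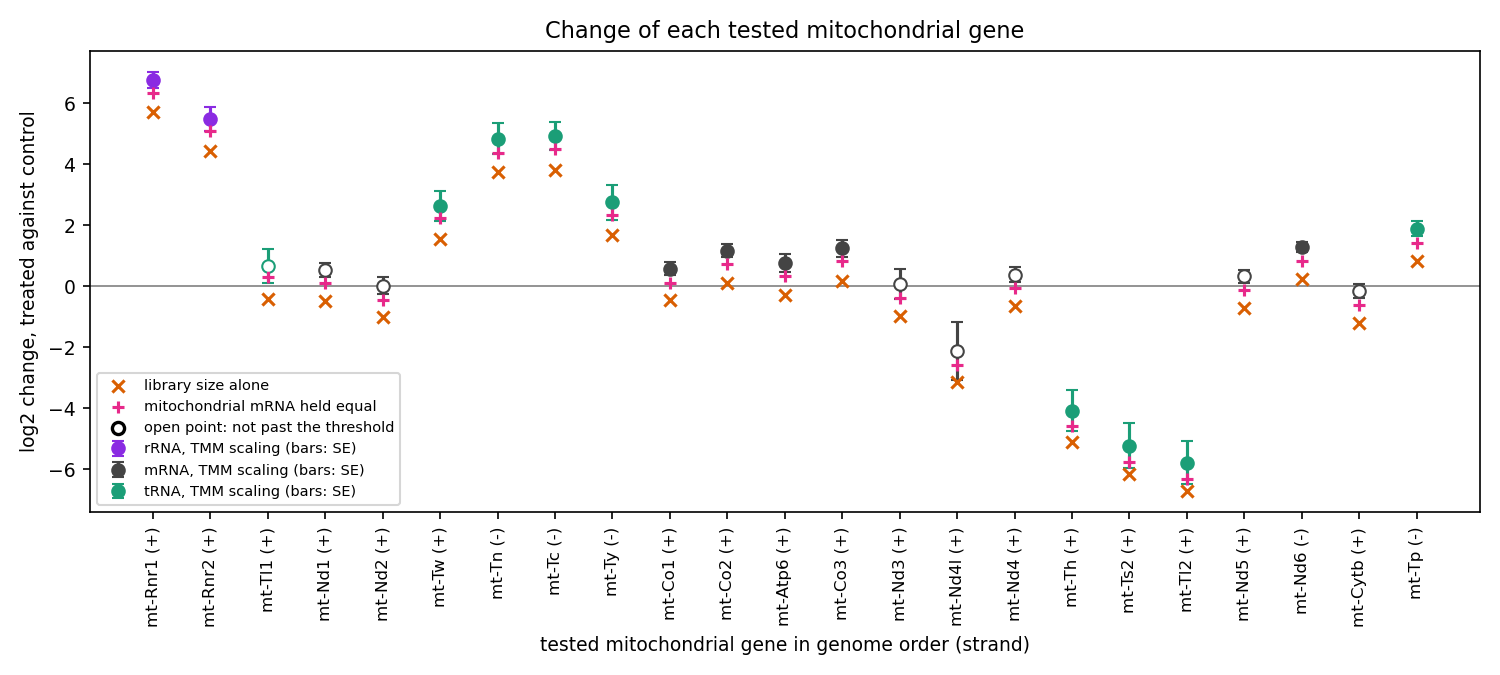
Log2 change of the 23 tested mitochondrial genes in genome order with their strand: filled points passed the threshold, open points did not, bars are SE, and crosses give the value under 2 other scalings. The rRNA genes and the genes from mt-Tw to mt-Ty lie above 0 and mt-Th to mt-Tl2 below 0 under all 3 scalings, whereas most mRNA genes cross 0 between them.

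In the genome as a whole the balance of the classes shifted from mRNA to rRNA. The 37 genes took 1.08% ± 0.292 of library counts in controls and 2.26% ± 0.457 in treated libraries (SD, n = 3 each). Of the mitochondrial counts, mRNA made up 95.7% ± 0.343 in controls and 30.1% ± 2.48 after treatment, rRNA 3.75% ± 0.522 and 68.2% ± 2.14, and tRNA 0.582% ± 0.208 and 1.73% ± 1.18. The ratio of rRNA to mRNA counts was 0.0345, 0.0454 and 0.0379 in the controls and 2.29, 2.53 and 2.03 in the treated libraries. That is a 58.2-fold difference, which does not depend on how libraries are scaled (exact permutation p = 0.1, adjusted 0.114). With only mt-Nd1, mt-Nd2, mt-Nd5, mt-Nd6 and mt-Cytb as mRNA genes, the log2 difference was 6.01 in place of 5.86. These are the mRNA genes, mt-Atp8 left out, with no near-identical annotated nuclear copy, a choice made after the counts were seen.

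Per library, tRNA took 0.00646%, 0.00557% and 0.00558% of all counts in controls and 0.0587%, 0.0298% and 0.0196% in treated libraries. Treated replicate 1 was again the highest, and without it the difference in means was 0.0188 in place of 0.0302 percentage points. The mRNA shares were 0.765%, 1.31% and 1.01% in controls and 0.575%, 0.570% and 0.913% after treatment. They overlapped (exact permutation p = 0.2, adjusted 0.2), and the difference of −0.342 percentage points shrank to −0.199 without control replicate 2. Along the plus strand, mt-Nd4l, mt-Nd4, mt-Nd5 and mt-Cytb, far from the promoter, were set against mt-Nd1, mt-Nd2, mt-Co1 and mt-Co2, nearer to it. The log2 ratio was −1.46, −1.35 and −1.39 in controls and −2.09, −1.54 and −1.80 in treated libraries. The far genes were lower by 0.41 relative to the near ones (exact permutation p = 0.1, adjusted 0.114), and by 0.27 without treated replicate 1.

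**Figure D4:**
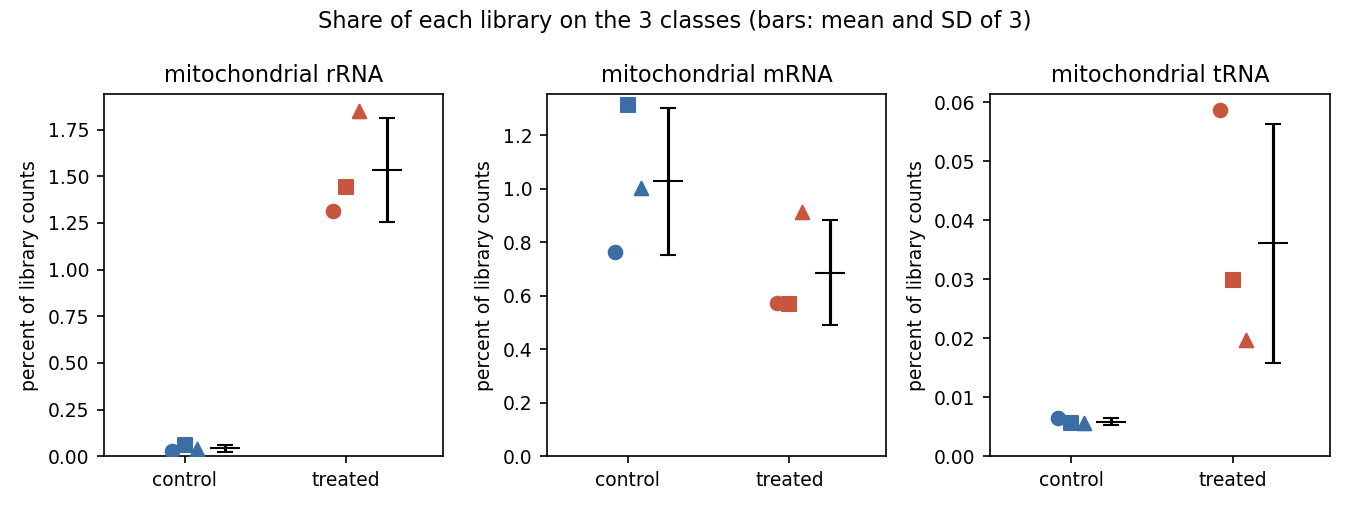
Percent of each library's counts on mitochondrial rRNA, mRNA and tRNA, 1 point per library (circle, square and triangle for replicates 1, 2 and 3) with mean and SD of 3 beside them. Treated libraries lie between 1.32% and 1.85% for rRNA, above controls of at most 0.0597%, while mRNA shares overlap.

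Shares of other RNA classes in the same libraries stood as follows. Nuclear protein-coding genes took 96.0% ± 0.265 of counts in controls and 92.9% ± 0.195 in treated libraries. Nuclear rRNA genes took 0.0891% ± 0.00588 and 0.126% ± 0.0140, miRNA genes 0.0365% ± 0.00427 and 0.198% ± 0.0544, replication-dependent histone genes, whose mRNAs lack poly(A) tails, 0.00276% ± 0.000237 and 0.0142% ± 0.000800, and snoRNA genes 0.00708% ± 0.00116 and 0.00407% ± 0.000440. The 26 tested genes shorter than 100 bases include the 9 tested mitochondrial tRNA genes. Of the 17 nuclear ones, 7 were higher and 7 lower, with a median log2 change of 0.13. The part of these classes and of gene length in the mitochondrial results was not tested. With a gene length offset, 4 mitochondrial genes were higher, mt-Rnr1, mt-Rnr2, mt-Tn and mt-Tc, and 8 were lower.

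The nuclear genome supplies the proteins that copy, transcribe, cut and modify mitochondrial RNA, and most of the genes for them fell. Of 84 such genes in 4 lists, 83 were tested, and 54 were lower, 11 higher and 18 not called. That is a larger lower share than the 40.2% among all genes, with a median log2 change of −1.06 against −0.18. The lists were chosen with earlier results of these data known, so this excess is descriptive and was not tested. The count of higher genes moved with the settings, to 2 by library size alone, 0 on the ribosomal protein scale and 3 with mitochondrial mRNA held equal, and to 7 without control replicate 2 or without control replicate 3.

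Transcription and replication of the genome had 13 of 22 genes lower and 2 higher, with a median of −0.84. Polrmt, the mitochondrial RNA polymerase, stood at 39.5, 32.2 and 36.2 CPM in controls and at 2.47, 3.01 and 3.05 CPM in treated libraries. All treated libraries lay far below all controls. The log2 change was −3.66 ± 0.22 (SE, edgeR adjusted p = 4.32e-07). Tfam, which packages the genome and bends its promoters, went from 41.5 ± 1.42 to 5.62 ± 0.643 CPM (SD, n = 3 each), a log2 change of −2.88 ± 0.19. Tefm, the elongation factor, fell by 2.06 ± 0.32, Lig3, the DNA ligase, fell by 2.63 ± 0.20, and Twnk, the replicative helicase, fell by 1.06 ± 0.18. Tfb2m, the initiation factor that melts the promoter, changed by −0.23 ± 0.21 and was not called, but was called lower by library size alone (−1.27) and on the ribosomal protein scale (−2.62). Polg, the DNA polymerase, fell by 0.61 ± 0.15, and with the length offset it was called higher at 0.56. Ssbp1, which coats single-stranded DNA, and Top1mt, a topoisomerase, were higher by 0.62 ± 0.17 and 0.48 ± 0.19. Both turned negative by library size alone, at −0.43 and −0.57, and on the ribosomal protein scale, and Top1mt also with the length offset. The Top1mt call was lost without control replicate 1 (0.52), 2 (0.39) or 3 (0.45) and without treated replicate 1 (0.34) or 2 (0.33).

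RNA processing, stability and decay had 16 of 24 genes lower and 4 higher, with a median of −1.07. Mtpap, the mitochondrial poly(A) polymerase, fell by 3.67 ± 0.33 on the log2 scale, and Ptcd1, a leucine tRNA-binding protein, fell by 3.50 ± 0.45. 1110008L16Rik, the older symbol of Prorp, encodes the nuclease that cuts the 5′ ends of mitochondrial tRNAs. It went from 10.2 ± 0.723 to 1.00 ± 0.270 CPM and fell by 3.33 ± 0.30. Hsd17b10, a dehydrogenase that is another subunit of the same nuclease, moved the other way. It stood at 61.4, 46.4 and 51.9 CPM in controls and at 285, 281 and 179 CPM in treated libraries, a log2 change of 2.22 ± 0.21 (SE, edgeR adjusted p = 3.61e-06) that turned to −0.21 on the ribosomal protein scale. Rexo2, an exonuclease for very short RNAs, was higher by 2.04 ± 0.17 and turned to −0.38 in that fit. Lrpprc, which holds mitochondrial mRNAs in a stable complex, changed by 0.31 ± 0.17 and was not called. It was called higher with median-ratio factors (0.42), a stricter filter (0.43), DESeq2 (0.42), the length offset (1.33) and without treated replicate 1 (0.37), and lower by library size alone (−0.72) and on the ribosomal protein scale (−2.05). Its partner Slirp had 13, 10 and 17 counts in controls and 192, 26 and 9 in treated libraries. The call at 3.60 ± 0.97 (edgeR adjusted p = 0.00644) was lost without treated replicate 1, at 1.36, and without control replicate 3, at 3.75. It was also lost on the ribosomal protein scale, at 1.02. The value shrank to 2.47 by library size alone, 2.40 with limma-voom, 1.06 with log2(FPKM + 1) and 2.14 with log2(FPKM + 0.1).

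Genes that modify the rRNAs or assemble the mitochondrial ribosome had 15 of 20 tested members lower and 3 higher, with a median of −1.13. Mrm3, a methyltransferase of the large rRNA, fell by 3.71 ± 0.34, Rpusd4, a pseudouridine synthase, fell by 2.58 ± 0.23, and Gtpbp10, an assembly GTPase, fell by 2.26 ± 0.20. Rbfa, Mtg1 and Mrm1 were higher by 0.75 ± 0.22, 0.73 ± 0.22 and 0.60 ± 0.20. Those rises turned to −0.31, −0.33 and −0.43 by library size alone and to −1.68, −1.70 and −1.77 on the ribosomal protein scale, and with the length offset Rbfa was at −0.14. The Mrm1 call was lost without control replicate 2 (0.48) or 3 (0.58), the Mtg1 call without control replicate 2 (0.58) or treated replicate 1 (0.43), and the Rbfa call without treated replicate 2 (0.59).

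Genes for tRNA modification and 3′ end addition had 10 of 17 lower and 2 higher, with a median of −0.91. Cdk5rap1, which adds a methylthio group beside the anticodon, fell by 3.67 ± 0.28. Mettl8, a methyltransferase of the anticodon loop, fell by 3.49 ± 0.29, and Qtrt2, a subunit of the enzyme that inserts queuine, fell by 1.85 ± 0.20. Trmt1 and Nsun2, 2 RNA methyltransferases, were higher by 0.70 ± 0.15 and 0.36 ± 0.14, and turned to −0.35 and −0.68 by library size alone and further down on the ribosomal protein scale. The Nsun2 call was lost without control replicate 1 (0.38), 2 (0.27) or 3 (0.34), and without treated replicate 1 (0.29) or 2 (0.25).

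**Figure D5:**
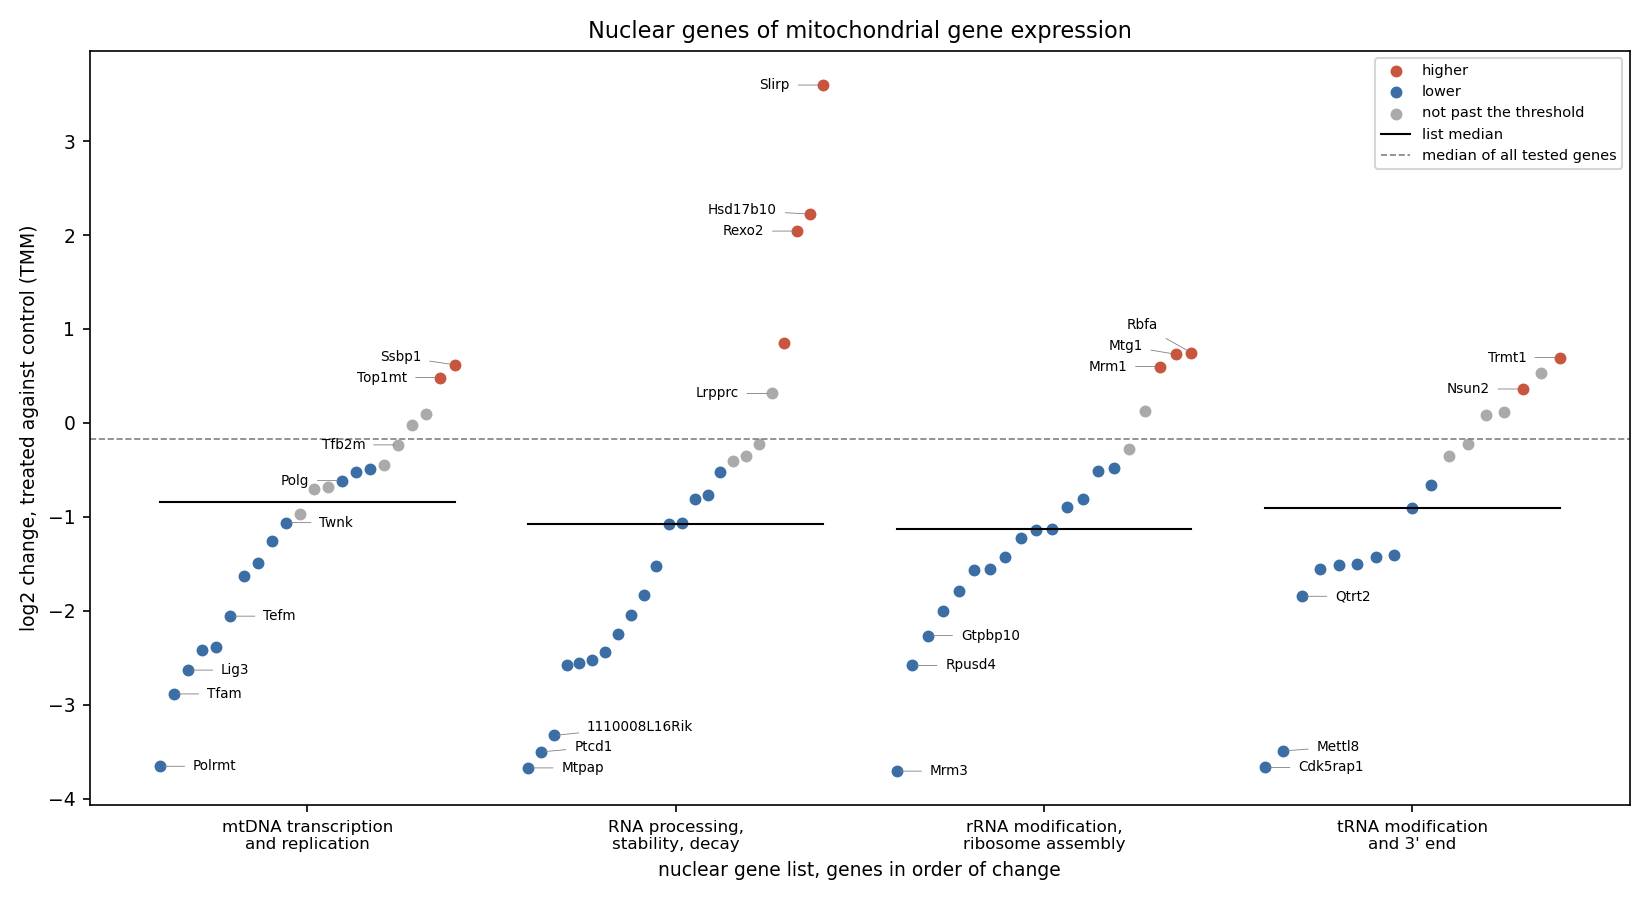
Log2 change of the 83 tested nuclear genes of mitochondrial gene expression in their 4 lists, each ordered by change, with the list median (line) and the median of all tested genes (dashed). All 4 list medians lie below the dashed line, and Polrmt, Mtpap, Mrm3 and Cdk5rap1 are the lowest in their lists.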

How the data were processed

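The authors deposited whole-number counts per Ensembl gene with coordinates and biotypes, FPKM values, and gene lengths in bases, which are of another unit (other) per the file headers. Per the submitters' processing notes the build was GRCm38 (mm10) and the tools included HISAT2 2.1.0, DESeq2 1.24.0 and RSEM 1.3.1, with roles not given. The deposited FPKM values carry a constant of 0.635 to 0.719 (control) and 1.22 to 1.64 (treated) of the value by library total. They were used in alternatives.

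Genes kept by filterByExpr were scaled by TMM and tested with edgeR 4.0.16 (robust glmQLFit, glmQLFTest) in R 4.3.3. The SE is the log2 change divided by the root of F. The edgeR fit alone was tested on simulated data, in which few genes changed, equally in both directions. In the real data 74.8% of tested genes passed, so that test cannot judge the scaling used here. TMM factors were 1.34 to 1.53 in controls and 0.640 to 0.797 in treated libraries. Coordinates of 37 of 37 mitochondrial genes equal GENCODE M21. Nuclear copies were found with blastn 2.17.0 among its transcripts, with at least 50 aligned bases. Of 90 list symbols, 84 were found. Named genes are both rRNA genes, every mRNA and tRNA gene past the threshold, mt-Nd6, the 3 most abundant plus-strand mRNAs, 7 preset nuclear genes and, per nuclear list, up to 3 rises and 3 falls among genes averaging 1 CPM or more. Members and lists were chosen with earlier results of these data known. Alternatives were other scalings, no or a stricter filter, DESeq2 1.42.0, limma 3.58.1 (voom, and log2(FPKM + 1) or log2(FPKM + 0.1)), a replicate block, a length offset (lowess, span 0.3) and leaving out each library. No 2 libraries of a group were alike within sampling noise (chi-square per degree of freedom 9.84 to 63.4). The values of 1 marker gene are left out of the text.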

Additional observations from a re-analysis of the deposited data

How the results depend on the processing

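Against 12 mitochondrial genes higher and 3 lower, counts were 7 and 7 by library size alone, 4 and 16 on the ribosomal protein scale, and 4 and 8 with a gene length offset. Lower genes numbered 1 with a stricter filter and 5 with limma on either FPKM scale, where the set of genes tested differs. Leaving out 1 library gave 10 to 15 higher and 3 to 4 lower. Of the nuclear genes, 11 higher became 2 by library size alone, 0 on the ribosomal protein scale, 3 with mitochondrial mRNA held equal, 7 with no filter and 7 to 11 with 1 library left out, and the 54 lower ranged from 46 to 57 in the last case. Same-numbered libraries did not deviate together (correlations 0.22, −0.14 and 0.03), so they share only a number. A fit with a replicate block gave 14 mitochondrial genes higher and 3 lower, and 10 nuclear genes higher and 57 lower; it added calls of mt-Nd1 and mt-Nd4 and lost that of Nsun2. With mitochondrial mRNA held equal the calls of Mrm1, Mtg1, Rbfa, Trmt1, Ssbp1 and Top1mt were lost.

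The direction turned for these genes, on the log2 scale, and where no construction shows it the cause was not tested. By library size alone: mt-Tl1 −0.40, mt-Nd1 −0.49, mt-Nd2 −1.01, mt-Co1 −0.46, mt-Atp6 −0.28, mt-Nd3 −0.97, mt-Nd4 −0.66, mt-Nd5 −0.71, Lrpprc −0.72, Mrm1 −0.43, Mtg1 −0.33, Rbfa −0.31, Nsun2 −0.68, Trmt1 −0.35, Ssbp1 −0.43 and Top1mt −0.57. On the ribosomal protein scale: mt-Tl1 −1.79, mt-Nd1 −1.83, mt-Nd2 −2.34, mt-Co1 −1.81, mt-Co2 −1.25, mt-Atp6 −1.64, mt-Co3 −1.21, mt-Nd3 −2.32, mt-Nd4 −2.01, mt-Nd5 −2.05, mt-Nd6 −1.11, mt-Tp −0.54, Hsd17b10 −0.21, Lrpprc −2.05, Rexo2 −0.38, Mrm1 −1.77, Mtg1 −1.70, Rbfa −1.68, Nsun2 −2.03, Trmt1 −1.70, Ssbp1 −1.78 and Top1mt −1.94. With a length offset: mt-Tl1 −1.42, mt-Nd1 −0.62, mt-Nd2 −1.08, mt-Co1 −0.20, mt-Co2 −0.27, mt-Atp6 −0.67, mt-Co3 −0.11, mt-Nd3 −1.67, mt-Nd4 −0.50, mt-Nd5 −0.29, mt-Nd6 −0.30, mt-Tp −0.16, Rbfa −0.14, Top1mt −0.0346 and Polg 0.56. With mitochondrial mRNA held equal: mt-Nd2 −0.45, mt-Nd3 −0.38, mt-Nd4 −0.0512, mt-Nd5 −0.13, Lrpprc −0.16 and Nsun2 −0.12. With no filter: mt-Nd2 −0.14 and mt-Nd3 −0.0901. With 1 library left out: mt-Tl1 −0.18 to 0.93, mt-Nd2 −0.38 to 0.24, mt-Nd3 −0.23 to 0.32 and mt-Cytb −0.40 to 0.0237.

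The shares and ratios kept their direction in every alternative run, and none can pass 0.05 with 3 against 3 libraries. Of the 14 mitochondrial genes that were not tested, 6 had 0 counts in all libraries and the others few, and why was not tested.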
